A study of Rattus norvegicus with 8 samples.

Results

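The genes described here encode the AMPA receptor subunits (Gria1 to Gria4) and the kainate receptor subunits (Grik1 to Grik5) of the rat. They were chosen by symbol, each symbol stood on 1 row, and the 9 rows were among 32662 genes in the table. RNA sequencing was done on oligodendrocyte precursors in primary culture, from the cortex of Sprague Dawley rat pups aged 1 to 2 days. The 4 OGD libraries came from precursors deprived of oxygen and glucose for 6 h (oxygen glucose deprivation, used as a model of ischaemia), and the 4 Control libraries from precursors kept under normal conditions. Cells of both groups were first grown as mixed glia in 20% serum. They were then taken as the fraction that did not adhere and kept for 4 to 5 days on coated plates with the growth factors PDGF and FGF (10 ng/ml each), 2% B27, 2 mM glutamine and 1% antibiotic. The labels do not say whether the libraries of a group came from separate cultures, so the p-values rest on a spread between samples that may be purely technical.

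AMPA and kainate receptors are ion channels opened by glutamate, each built from 4 subunits around a pore. The GluA2 subunit (Gria2), once its messenger RNA has been edited at a glutamine codon of the pore, makes an AMPA receptor nearly impermeable to calcium. Receptors of the other AMPA subunits alone let calcium in. Among kainate subunits, GluK1, GluK2 and GluK3 (Grik1, Grik2, Grik3) can form channels by themselves, whereas GluK4 and GluK5 (Grik4, Grik5) bind glutamate tightly and need one of those as a partner. Oligodendrocyte precursors carry both receptor types and receive synapses from neurons. Overactivation of these receptors is a known route of injury to cells of this lineage when the brain lacks oxygen and glucose. The values are for whole genes, so they do not resolve the flip and flop splice forms or the edited form.

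Levels are given as FPKM, the fragments of a gene scaled by its length and by the fragment total of the library, and so may be compared between genes. The number of fragments per library is unknown. Relative depths, read from the step that 1 fragment makes in low genes, were 0.816 to 1.18 in OGD libraries and 1.00 to 1.11 in Control libraries, with Control replicate 1 set to 1. The label of the cells was checked against 8 precursor markers, all of which passed the filter of at least 1 FPKM in at least 4 libraries. Their summed level was 1449 to 1669.7 FPKM in OGD and 2275 to 2422 FPKM in Control libraries, led over both groups together by Olig1 (357 ± 28.0 FPKM in OGD and 794 ± 41.4 FPKM in Control; SD, n = 4 each) and Ptprz1 (271 ± 18.3 FPKM in OGD and 342 ± 42.8 FPKM in Control). Of these markers, 6 fell, 0 rose and 2 did not pass in the test described below, in which 26.8% of all tested genes fell. The fall of Gpr17 (limma, adjusted p = 0.0467) held in only 8 of 17 alternative settings. Fewer cells of a type and less RNA per cell cannot be told apart in such bulk samples.

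Of the 9 subunit genes, 8 passed the filter and 1 (Grik1) did not. In the limma test of log2(FPKM + 1) over 11149 genes with Benjamini-Hochberg adjustment, Gria4 and Grik2 rose and Gria1 fell. Gria2, Gria3, Grik3, Grik4 and Grik5 did not pass the threshold of 0.05. The call of Gria1 held in only 4 of 16 alternative settings, and Gria1 passed the filter because of the group in which it was higher. Over all genes 49.5% of tested genes passed, 22.7% upward and 26.8% downward, so 3 of 8 is no more than the genes show as a whole. The median log2 change was 0.09 over the 8 tested subunits and -0.04 over all tested genes, and the median absolute log2 change was 0.27 and 0.28. For 2 of the 8 subunits (Gria4 and Grik2) every OGD library was above every Control library, as for 20.7% of all tested genes. For 0 subunits was every OGD library below every Control library, against 24.1% of tested genes, and groups without overlap in either direction made up 44.7%.

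**Figure D1:**
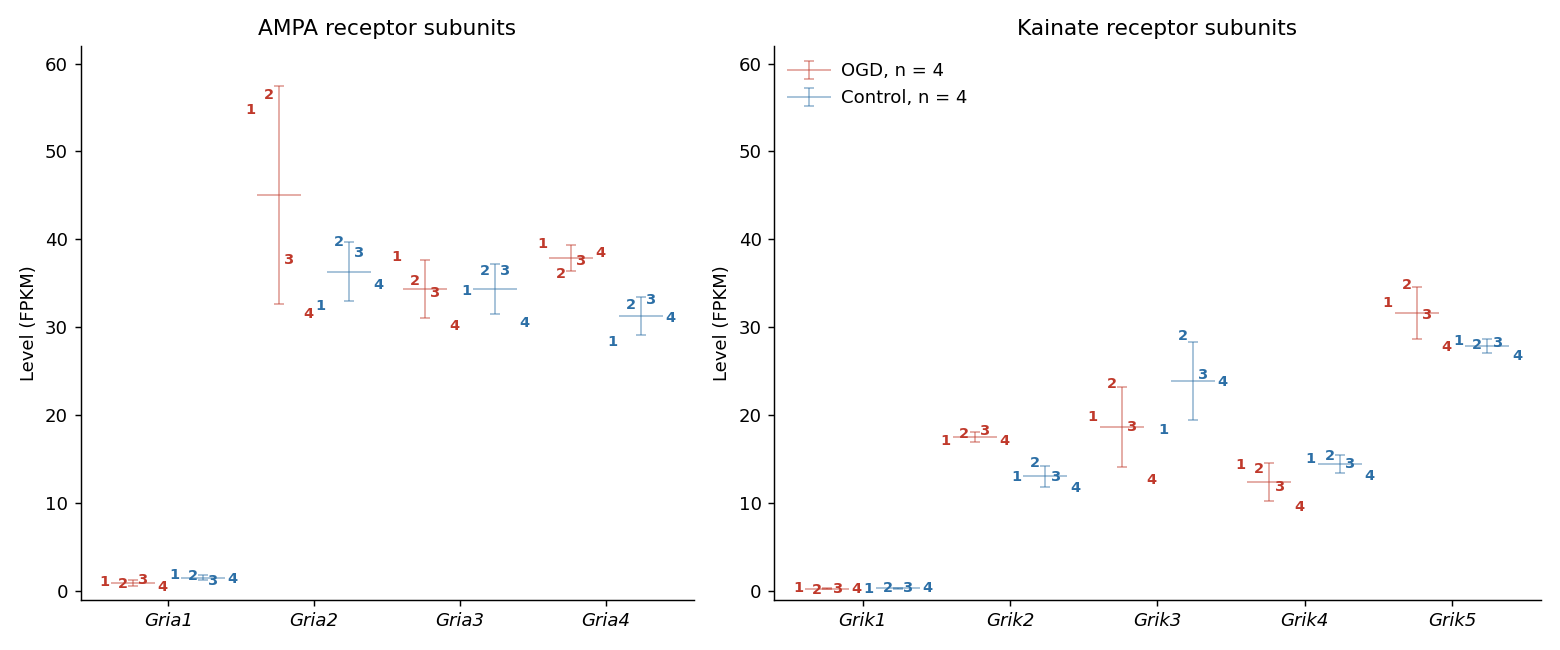
Level in FPKM (vertical axis) of each AMPA subunit gene (left) and kainate subunit gene (right) in every library, with OGD left of Control. Digits are replicate numbers, horizontal bars are means and vertical bars are SD (n = 4 each). For Gria4 and Grik2 every OGD library lies above every Control library, and for Gria2 the OGD libraries range from 31.5 to 56.4 FPKM.

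Gria4 (ENSRNOG00000006957) encodes GluA4, a fast-gating AMPA subunit abundant early in development. It stood at 39.4, 36.0, 37.5 and 38.5 FPKM in OGD replicates 1 to 4, against 28.3, 32.6, 33.1 and 31.1 FPKM in Control replicates 1 to 4. Every OGD library was above every Control library, and the OGD libraries lay close together. The OGD mean was 1.21 times the Control mean (37.9 ± 1.45 FPKM in OGD and 31.3 ± 2.15 FPKM in Control; SD, n = 4 each). Its log2 change was 0.27 (SE 0.07, limma adjusted p = 0.00680). Gria4 passed in all 17 alternatives, with an adjusted p of at most 0.0236. A change of this size was not unusual in the table: 51.4% of tested genes had a larger absolute log2 change.

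Grik2 (ENSRNOG00000000368) encodes GluK2, which can form kainate channels without other subunits. Its level was 17.1, 17.9, 18.1 and 17.1 FPKM in OGD replicates 1 to 4, against 13.0, 14.6, 13.0 and 11.7 FPKM in Control replicates 1 to 4. The groups did not overlap here either, and the OGD libraries lay close together. The OGD mean was 1.34 times the Control mean (17.5 ± 0.557 FPKM in OGD and 13.0 ± 1.20 FPKM in Control; SD, n = 4 each). Its log2 change was 0.40 (SE 0.08, limma adjusted p = 0.00149), and Grik2 passed in all 17 alternatives (adjusted p of at most 0.00577). In 33.7% of tested genes the absolute log2 change was larger.

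The promoters of Gria4 and Grik2 are shown because these are the subunits that rose. They run from 250 bases before to 50 bases after the start of the gene, 5′ to 3′ on the gene's strand, from RefSeq (build GRCr8), and lie at chr8:10319832-10320131 (minus strand) and chr20:54415234-54415533 (minus strand). Capitals mark matches to the motifs searched on both strands.
Gria4: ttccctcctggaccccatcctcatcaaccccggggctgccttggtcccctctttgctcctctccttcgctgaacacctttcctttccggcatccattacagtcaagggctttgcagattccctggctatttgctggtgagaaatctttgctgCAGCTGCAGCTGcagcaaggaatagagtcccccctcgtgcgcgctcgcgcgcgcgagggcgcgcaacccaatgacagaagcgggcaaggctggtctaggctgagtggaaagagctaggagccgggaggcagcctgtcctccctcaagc
Grik2: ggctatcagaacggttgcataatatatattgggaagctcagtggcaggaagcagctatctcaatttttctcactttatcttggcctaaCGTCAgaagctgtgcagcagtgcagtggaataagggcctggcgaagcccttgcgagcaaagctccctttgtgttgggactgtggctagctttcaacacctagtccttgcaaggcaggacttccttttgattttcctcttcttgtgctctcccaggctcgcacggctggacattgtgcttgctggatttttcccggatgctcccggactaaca
The motifs were the hypoxia response core (ACGTG or GCGTG), the ATF4 composite element (TGATGNAA), the cyclic AMP response element (TGACGTCA), its short site (TGACG, which lies within the full element), the SP1 box (GGGCGG) and an E box of basic helix-loop-helix factors (CAGCTG). The short site and the E box were added after these sequences had been seen. The Gria4 window held 2 adjacent E boxes, the first at position -98 from the start, and 15.1% of 33469 rat promoters of the same length held at least 1. The Grik2 window held 1 short site, at position -162 on the opposite strand, as did 21.2% of all promoters with at least 1. Neither window held the letters of the hypoxia response core, which 41.6% of promoters did, of the SP1 box (33.1%), of the ATF4 element (3.98%) or of the full cyclic AMP element (1.83%). Such a match is a description of letters and not a site in use. The RefSeq table gave promoters for 6 of the 9 genes, and those of Gria1, Gria2 and Gria3 were not used here.

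Gria2 (ENSRNOG00000054204), the gene of the subunit that closes the AMPA pore to calcium, had the highest mean level of the family in both groups. It stood at 54.7, 56.4, 37.6 and 31.5 FPKM in OGD replicates 1 to 4, against 32.5, 39.7, 38.4 and 34.8 FPKM in Control replicates 1 to 4. OGD replicates 1 and 2 were above every Control library, OGD replicate 3 was within the Control range and OGD replicate 4 was below it. The group means were 45.1 ± 12.4 FPKM in OGD and 36.3 ± 3.31 FPKM in Control (SD, n = 4 each). The log2 change was 0.27, with a 95% interval from -0.10 to 0.63, and did not pass (limma, adjusted p = 0.204), so neither no change nor a rise of this size can be told from these libraries. Without OGD replicate 4 the log2 change was 0.42 and passed (adjusted p = 0.0235, range over 17 alternatives 0.0235 to 0.470). Its spread among OGD libraries, with a coefficient of variation of 27.5%, compares with a median of 11.4% over all tested genes; in Control libraries it was 9.12%, against a median of 9.71%.

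The share of mitochondrially encoded genes in the summed FPKM differed between the same libraries. It was 29.6%, 30.4%, 23.4% and 20.4% in OGD replicates 1 to 4, and 25.1% to 27.9% in Control libraries. The OGD libraries with the most Gria2 thus also had the largest mitochondrial share. The part of this share in the result was not tested. After rescaling to the FPKM outside these genes the log2 change of Gria2 was 0.30, against 0.27 without rescaling. It again did not pass (limma, adjusted p = 0.198).

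Gria3 (ENSRNOG00000007682) encodes GluA3, an AMPA subunit often paired with GluA2. It was at 38.0, 35.3, 33.9 and 30.1 FPKM in OGD replicates 1 to 4 and at 34.1, 36.4, 36.4 and 30.4 FPKM in Control replicates 1 to 4. The groups overlapped and their means were 34.3 ± 3.28 FPKM in OGD and 34.3 ± 2.81 FPKM in Control (SD, n = 4 each). The log2 change was -0.00 with a 95% interval from -0.19 to 0.19 (limma, adjusted p = 0.989), and 99.5% of tested genes had a larger absolute log2 change.

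Gria1 (ENSRNOG00000045816) encodes GluA1, a subunit whose trafficking to synapses depends on activity. Its level was far below that of the other AMPA subunits, at 0.977, 0.834, 1.22 and 0.476 FPKM in OGD replicates 1 to 4 and at 1.80, 1.70, 1.18 and 1.35 FPKM in Control replicates 1 to 4. Of the OGD libraries, 3 were below every Control library, while OGD replicate 3 was within the Control range. Its log2 change was -0.43 (SE 0.16, limma adjusted p = 0.0415), and its OGD mean was 0.581 times the Control mean (0.876 ± 0.310 FPKM in OGD and 1.51 ± 0.290 FPKM in Control; SD, n = 4 each). Of 16 alternatives in which Gria1 was tested (it is below the filter of 5 FPKM), the call held in 4 and was lost in 12, for instance without any filter (adjusted p = 0.0508) and with the replicate number as a block (adjusted p = 0.0513), with a range of 0.0235 to 0.201. It was lost without OGD replicate 1 (0.0573), 2 (0.0732) or 4 (0.103) and without Control replicate 1 (0.10), 2 (0.0987) or 4 (0.0589). With a pseudocount of 0.1 the log2 change was -0.76 (adjusted p = 0.0527). Gria1 reached 1 FPKM in 5 libraries, of which 4 were Control libraries, so it was tested because of the group in which it was higher, and 97.4% of tested genes had a higher mean level.

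Grik3 (ENSRNOG00000008992) encodes GluK3, a kainate subunit of low glutamate sensitivity. It stood at 19.8, 23.6, 18.6 and 12.6 FPKM in OGD replicates 1 to 4 and at 18.2, 29.0, 24.6 and 23.8 FPKM in Control replicates 1 to 4. The groups overlapped, since Control replicate 1 was lower than 3 of the OGD libraries. The log2 change was -0.36, with a 95% interval from -0.74 to 0.03 (limma, adjusted p = 0.115). Without OGD replicate 2 (-0.47, adjusted p = 0.0436) or without Control replicate 1 (-0.47, adjusted p = 0.0462) it passed, with a range over 17 alternatives of 0.0399 to 0.277.

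Grik4 (ENSRNOG00000030910) and Grik5 (ENSRNOG00000020310) encode the partner subunits GluK4 and GluK5. Grik4 was at 14.3, 13.9, 11.9 and 9.52 FPKM in OGD replicates 1 to 4 and at 15.0, 15.3, 14.4 and 13.0 FPKM in Control replicates 1 to 4. OGD replicates 3 and 4 were below every Control library, and the other 2 were within the Control range. Its log2 change was -0.22 (95% interval -0.48 to 0.04; limma, adjusted p = 0.140) and passed in 0 of 17 alternatives.

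Grik5 was at 32.7, 34.8, 31.4 and 27.7 FPKM in OGD replicates 1 to 4 and at 28.4, 28.0, 28.2 and 26.7 FPKM in Control replicates 1 to 4. In 3 OGD libraries it was above every Control library, and OGD replicate 4 was within the Control range. Its log2 change was 0.18 (95% interval 0.01 to 0.34) and did not pass after adjustment (limma, adjusted p = 0.0722). Without OGD replicate 4 it was 0.24 and passed (adjusted p = 0.0126, range over 17 alternatives 0.0126 to 0.182).

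Grik1 (ENSRNOG00000001575) encodes GluK1 and was the lowest member of the family. It was at 0.285, 0.147, 0.209 and 0.254 FPKM in OGD replicates 1 to 4 and at 0.159, 0.307, 0.296 and 0.337 FPKM in Control replicates 1 to 4. The groups overlapped and no library reached 1 FPKM, so Grik1 was not tested in the filtered table. Without the filter its log2 change on the FPKM + 1 scale, which understates changes of low genes, was -0.06 (95% interval -0.20 to 0.09; limma, adjusted p = 0.531).

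**Figure D2:**
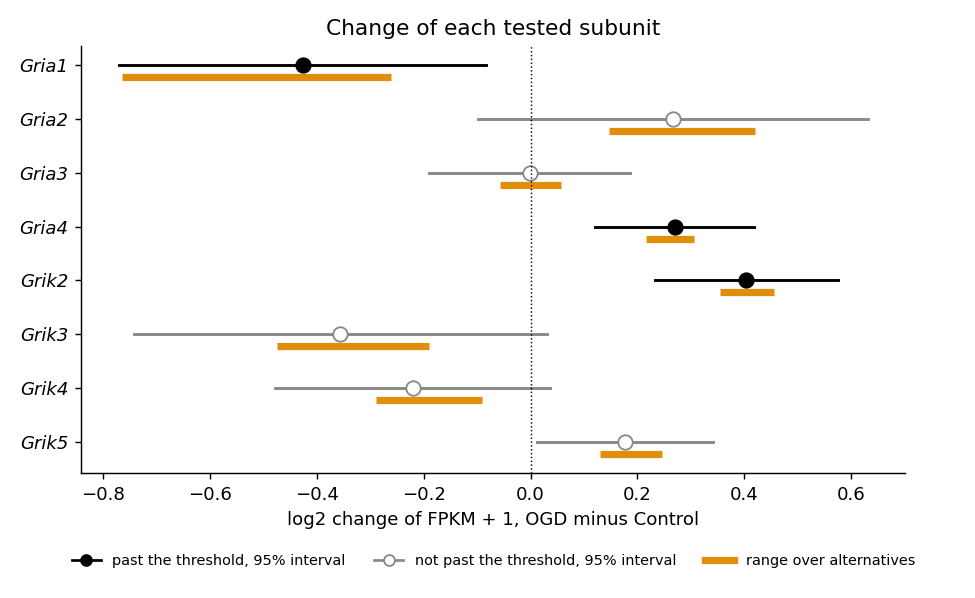
Log2 change of FPKM + 1, OGD minus Control (horizontal axis), for the 8 tested subunit genes. Circles are estimates, filled where past the threshold, thin lines are 95% intervals and orange bars span the estimates over all alternatives tried. The orange bars of Gria2, Gria4, Grik2 and Grik5 lie above 0, those of Gria1, Grik3 and Grik4 below 0, and that of Gria3 spans 0. Bars clear of 0 thus include genes that did not pass.

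Several subunits were lowest in the same OGD library. OGD replicate 4 held the lowest OGD value of 7 of the 9 genes, the exceptions being Gria4 and Grik1. Of all tested genes, 29.7% had their lowest OGD value there and 31.4% their highest. For Grik2 the margin was slim, at 17.05 FPKM in OGD replicate 4 and 17.06 FPKM in OGD replicate 1. OGD replicate 1 held the highest OGD value of 4 of the 9. In the Control group the lowest values were spread over replicates 1, 3 and 4, with 4, 1 and 4 genes. Relative depth was 1.14 in OGD replicate 3, which held the lowest OGD value of 0 of the 9. It was the highest of all in OGD replicate 4, at 1.18. The part of such library differences in the results above was not tested beyond the values given without that library.

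The order of the mean levels in OGD was Gria2, Gria4, Gria3, Grik5, Grik3, Grik2, Grik4, Gria1 and Grik1, and in Control it was Gria2, Gria3, Gria4, Grik5, Grik3, Grik4, Grik2, Gria1 and Grik1. Gria4 was above Gria3 in all 4 OGD libraries but in 1 of 4 Control libraries, and Grik2 was above Grik4 in all 4 OGD libraries and in 0 of 4 Control libraries. In OGD the ranges over libraries overlapped for the neighbours Gria2 and Gria4, Gria4 and Gria3, Gria3 and Grik5, and Grik3 and Grik2. Within libraries, however, Gria3 was above Grik5 in all 4 OGD libraries too. In Control the ranges of all neighbours from Gria2 down to Grik3 overlapped, as did those of Grik4 and Grik2. Gria1 and Grik1 stood apart from the others and from each other in both groups.

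The make-up of the 2 families was described from the share of each gene in its family's summed FPKM, with no test, since such shares are tied to each other. The AMPA genes summed to 118.1 ± 15.3 FPKM in OGD and 103.4 ± 7.27 FPKM in Control (SD, n = 4 each), and the sums overlapped. Gria2 made up 41.1%, 43.9%, 34.1% and 31.3% of the sum in OGD replicates 1 to 4, against 33.6%, 36.0%, 35.2% and 35.6% in Control replicates 1 to 4. Its share was thus above the Control range in OGD replicates 1 and 2, within it in OGD replicate 3 and below it in OGD replicate 4. The difference of the mean share was 2.53 percentage points, between 0.438 and 4.62 when single libraries were left out. Gria2 was also compared with Gria4 and with Gria3, whose subunits, like that of Gria1, make calcium-permeable channels in the absence of GluA2. The ratio of Gria2 to Gria4 ranged from 0.819 to 1.57 in OGD and from 1.12 to 1.22 in Control libraries. That of Gria2 to Gria3 ranged from 1.046 to 1.599 in OGD and from 0.951 to 1.142 in Control libraries. In both ratios the groups overlapped.

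Gria3 took 27.4% to 30.7% of the AMPA sum in OGD and 31.2% to 35.3% in Control, with no overlap. The level of Gria3 itself overlapped between the groups and did not pass. The share of Gria4 was 28.0% to 38.2% in OGD and 29.3% to 31.9% in Control. Gria1 took 0.473% to 1.11% in OGD and 1.08% to 1.86% in Control.

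The kainate genes summed to 80.5 ± 9.77 FPKM in OGD and 79.5 ± 5.74 FPKM in Control (SD, n = 4 each). Within that sum the share of Grik2 was 19.8% to 25.4% in OGD and 15.4% to 17.3% in Control, with every OGD library above every Control library. Grik5 was also higher in each OGD library, at 38.5% to 41.3%, against 32.1% to 38.0% in Control. Grik4 was lower in each, at 14.2% to 17.0% in OGD and 17.3% to 20.1% in Control. The levels of Grik4 and Grik5 themselves overlapped between the groups and did not pass. How often such shares separate in other gene families was not tested. The share of Grik3 overlapped, at 18.8% to 26.1% in OGD and 24.4% to 33.2% in Control. The partner subunits Grik4 and Grik5 together held 54.8% ± 1.04 of the sum in OGD and 53.3% ± 3.48 in Control (SD, n = 4 each). Grik5 was 2.29 to 2.91 times Grik4 in OGD libraries and 1.83 to 2.05 times Grik4 in Control libraries.

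**Figure D3:**
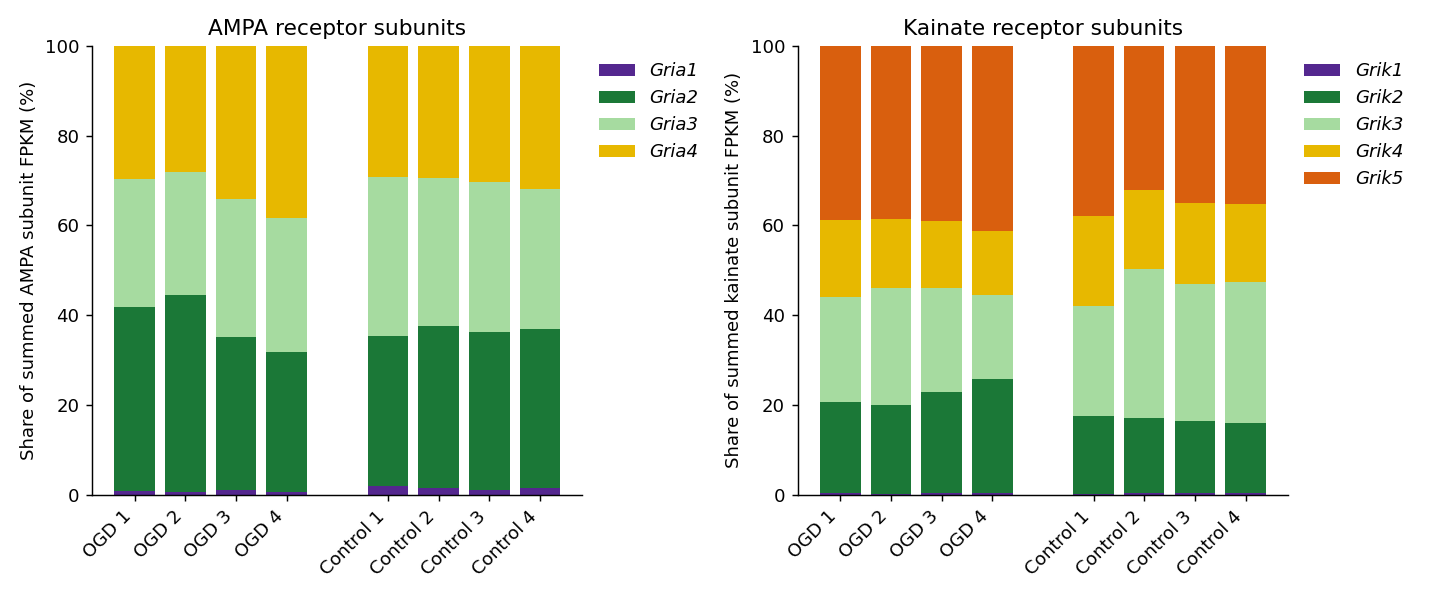
Share of each gene in the summed FPKM of its family (vertical axis, percent) in each library, AMPA genes left and kainate genes right, with the 4 OGD libraries left of the 4 Control libraries. The share of Gria2 falls between 31.3% and 43.9% in OGD and between 33.6% and 36.0% in Control, and that of Grik2 is higher in every OGD library than in any Control library.

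Genes whose products act with these receptors were read from 9 lists with 72 genes, of which 70 had a row and 49 passed the filter. Of the 49, 10 rose, 10 fell and 29 did not pass, which is 40.8% called against 49.5% of all tested genes. Their median log2 change was -0.07.

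AMPA receptor auxiliary subunits set the gating and the surface delivery of the channels. Of 12 tested, 2 rose, 4 fell and 6 did not pass, with a median log2 change of -0.25 against -0.04 over all tested genes. Cacng4, a transmembrane AMPA receptor regulatory protein and the highest gene of the list, fell to 137.4 ± 17.4 FPKM in OGD, against 217.9 ± 14.0 FPKM in Control (SD, n = 4 each; log2 change -0.67, SE 0.09, limma adjusted p = 0.000199). Abhd6, a lipid hydrolase that binds AMPA subunits and limits their surface delivery, rose to 10.5 ± 0.653 FPKM in OGD, against 6.37 ± 0.510 FPKM in Control (log2 change 0.64, SE 0.08, adjusted p = 0.000139). The other falls were those of the cornichons Cnih2 (-0.56) and Cnih3 (-0.75), which ease export of the receptors from the endoplasmic reticulum, and of Syndig1 (-0.34), a membrane protein that binds AMPA receptors. The other rise was that of Cpt1c (0.42), a protein of the endoplasmic reticulum that binds GluA1. Those of Cnih3, Syndig1 and Cpt1c did not pass in 3, 1 and 6 of the 16 alternatives that tested them. Cnih3 was low (mean 1.20 FPKM in OGD and 2.64 FPKM in Control). It reached 1 FPKM in 6 libraries, of which 4 were Control libraries, so it was tested because of the group in which it was higher. Cacng7, another regulatory protein, stood at 129.6 ± 12.2 FPKM in OGD and 126.6 ± 5.16 FPKM in Control and did not pass (0.03, adjusted p = 0.768); Cacng7 and the 4 genes before it were named after their values were seen.

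The kainate receptor auxiliary subunits Neto1 and Neto2 did not pass, though 1 of the 2 (Neto2) had an unadjusted p under 0.05. Neto1 was at 44.0 ± 2.61 FPKM in OGD and 46.4 ± 5.49 FPKM in Control (log2 change -0.07, limma adjusted p = 0.541), and Neto2 at 21.0 ± 2.07 FPKM in OGD and 24.6 ± 2.42 FPKM in Control (-0.22, adjusted p = 0.0701; SD, n = 4 each). Neto2 passed in 3 of 17 alternatives. Its adjusted p was 0.0412 when libraries were median-centred, 0.0448 without OGD replicate 1 and 0.0433 without Control replicate 4. Neto1 passed in 1 of 17, without OGD replicate 4 and Control replicate 1 together (log2 change -0.19, limma adjusted p = 0.0296). That joint omission was chosen after seeing the data.

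Among 13 tested scaffold and trafficking genes, 6 rose, 3 fell and 4 did not pass, with a median log2 change of 0.05. Nptx2, a secreted pentraxin that clusters AMPA receptors, rose to 44.3 ± 2.55 FPKM in OGD, against 21.6 ± 1.92 FPKM in Control (log2 change 1.01, SE 0.08, limma adjusted p = 3.85e-06). Dlg4, the scaffold protein PSD-95, rose to 39.9 ± 2.76 FPKM in OGD, against 22.6 ± 0.657 FPKM in Control (0.79, SE 0.07, adjusted p = 7.38e-06). The relatives Dlg1 (0.37) and Dlg3 (0.39) rose too, as did Gripap1 (0.24) and Pick1 (0.26), which act in the recycling of AMPA receptors; Pick1 passed in 7 and Gripap1 in 14 of 17 alternatives. The 3 falls were those of Nptxr (-0.66), the membrane-bound pentraxin partner, of Epb41l1 (-0.39), a cytoskeletal adaptor, and of Cspg4 (-1.09), the NG2 proteoglycan, which binds the scaffold GRIP1 and is itself a precursor marker. Sdcbp, the adaptor syntenin and the highest gene of the list over both groups together, was at 61.3 ± 7.02 FPKM in OGD and 64.1 ± 5.17 FPKM in Control (limma, adjusted p = 0.561).

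No RNA editing enzyme passed limma's test, with 0 of 3 called and 0 of 3 at an unadjusted p under 0.05. Adarb1, which edits the pore codon of Gria2, was at 2.87 ± 0.634 FPKM in OGD and 3.13 ± 0.357 FPKM in Control (SD, n = 4 each; log2 change -0.11, limma adjusted p = 0.550). Adar was at 10.3 ± 1.56 FPKM in OGD and 10.4 ± 1.62 FPKM in Control (adjusted p = 0.941) and Adarb2 at 8.24 ± 1.63 FPKM in OGD and 7.67 ± 0.935 FPKM in Control (adjusted p = 0.638). Of the 4 regulators known from the Gria2 promoter, 0 passed limma's test and 1 (Nrf1) had an unadjusted p under 0.05. Rcor1, the corepressor of REST, had a log2 change of 0.06, Sp1 of 0.03 and Nrf1 of -0.22 (adjusted p = 0.0771), the last of which passed without OGD replicate 4 (-0.29, adjusted p = 0.0190).

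Other glutamate receptors were mostly low. Of 8 NMDA and delta receptor genes listed 4 were tested, of which 0 rose, 2 fell and 2 did not pass. Grin3b, an NMDA receptor subunit gene, fell to 0.553 ± 0.193 FPKM in OGD, against 1.43 ± 0.106 FPKM in Control (SD, n = 4 each; log2 change -0.65, limma adjusted p = 0.00208). Grin1, the obligatory NMDA subunit gene, fell to 6.42 ± 0.850 FPKM in OGD, against 9.17 ± 0.940 FPKM in Control (-0.46, adjusted p = 0.00479). Grin3b reached 1 FPKM in the 4 Control libraries and in 0 OGD libraries, so it was tested because of the group in which it was higher. Grid1, the highest of this list, was at 15.8 ± 1.78 FPKM in OGD and 18.2 ± 2.16 FPKM in Control (adjusted p = 0.141). Of 7 metabotropic receptor genes listed Grm5 alone was tested, at 2.86 ± 0.382 FPKM in OGD and 3.60 ± 0.600 FPKM in Control (adjusted p = 0.114).

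Among 4 tested glutamate transporters, 1 rose. This was Slc1a1, the uptake carrier EAAT3, at 79.9 ± 5.82 FPKM in OGD and 60.6 ± 2.75 FPKM in Control (SD, n = 4 each; log2 change 0.39, SE 0.07, limma adjusted p = 0.000821), while Slc1a3, the carrier GLAST, was at 60.1 ± 2.49 FPKM in OGD and 63.4 ± 2.67 FPKM in Control (adjusted p = 0.313). Of 6 tested calcium extrusion genes, 1 rose and 1 fell. Slc8a2, a sodium-calcium exchanger, rose to 20.3 ± 2.97 FPKM in OGD, against 15.8 ± 1.86 FPKM in Control (0.34, adjusted p = 0.0292), a call that did not hold in 6 of 17 alternatives, among them those without OGD replicate 1 (0.0819) or 2 (0.0778) and without Control replicate 1 (0.0745), 3 (0.0574) or 4 (0.0764). Atp2b1, a plasma membrane calcium pump, fell to 14.4 ± 0.763 FPKM in OGD, against 20.5 ± 2.62 FPKM in Control (-0.47, adjusted p = 0.00155).

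**Figure D4:**
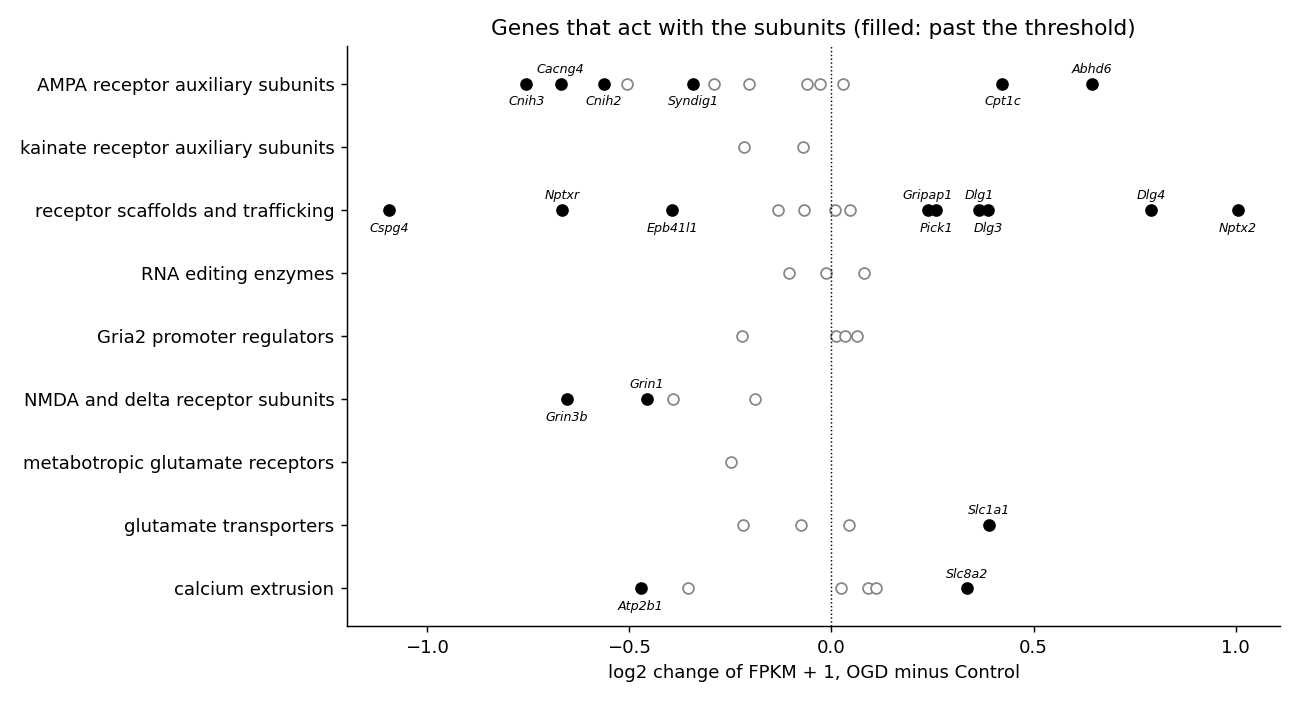
Log2 change of FPKM + 1, OGD minus Control (horizontal axis), of each of the 49 tested genes in 9 lists of genes that act with the receptors, 1 row per list. Filled circles with a name passed the threshold and open circles did not, and no gene of the kainate auxiliary, RNA editing or Gria2 regulator lists is filled.

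Markers of other cells that express glutamate receptors were read too, beside the 49.5% of all tested genes that passed (22.7% upward and 26.8% downward). The summed level of 12 neuronal markers was 159 to 171 FPKM in OGD and 146 to 155 FPKM in Control libraries, with 2 of 11 tested genes rising, 3 falling and 6 not passing. Tubb3, a neuronal tubulin, rose (53.0 ± 7.17 FPKM in OGD and 30.2 ± 3.88 FPKM in Control; SD, n = 4 each) and Dcx did not pass (41.2 ± 3.60 FPKM in OGD and 46.1 ± 4.83 FPKM in Control). The rise of Tubb3 in mean FPKM was larger than that of the whole sum, so the sum did not rise without it. Syn1, the synaptic vesicle protein synapsin, fell (27.6 ± 2.57 FPKM in OGD and 34.6 ± 0.596 FPKM in Control), Syt1, a calcium sensor of vesicle release, rose (11.9 ± 0.785 FPKM in OGD and 7.63 ± 0.985 FPKM in Control), and the other 7 tested markers averaged 1.32 to 8.39 FPKM in OGD and 0.968 to 10.1 FPKM in Control. The one marker of the list below the filter was Slc17a6, a defining marker of neurons that release glutamate, listed at 0 in all 4 OGD libraries and in 3 of 4 Control libraries, and Slc17a7, from the transporter list, was listed at 0 throughout. Slc17a8, of the same transporter list, was low but not absent (mean 0.116 FPKM in OGD and 0.165 FPKM in Control). The neuronal markers Gad1 (1.53 FPKM in OGD and 0.968 FPKM in Control) and Gad2 (1.68 FPKM in OGD and 1.36 FPKM in Control) were tested and did not pass. Neuronal genes other than Tubb3 and Dcx were named after their values were seen. The summed level of 6 oligodendrocyte markers was 334 to 393 FPKM in OGD and 594 to 776 FPKM in Control, with 4 falling and 1 rising, and that of the microglial markers was 51.3 to 94.7 FPKM in OGD and 169.6 to 273 FPKM in Control, with 7 of 8 tested genes falling. That of 7 astrocyte markers was 57.3 to 67.6 FPKM in OGD and 61.1 to 63.9 FPKM in Control, with 2 of 5 tested genes falling. Most of this sum was Sox9, which was higher in OGD but did not pass (44.1 ± 5.96 FPKM in OGD and 37.1 ± 2.94 FPKM in Control). The next highest, S100b, fell (6.67 ± 1.79 FPKM in OGD and 11.8 ± 2.37 FPKM in Control). Of the genes counted here as falling, Gfap (0.480 ± 0.258 FPKM in OGD and 2.16 ± 0.618 FPKM in Control) and the microglial Cx3cr1 reached 1 FPKM in the 4 Control libraries and in 0 OGD libraries, and P2ry12 in 1 OGD library. They were therefore tested because of the group in which they were higher, and were named after their values were seen. The part of other cells in the changes of the subunits was not tested.

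The genes whose log2(FPKM + 1) followed the 2 highest subunits most closely over the 8 libraries were sought among 10280 tested genes with a symbol, as a description over points that share their library, group and depth. For Gria2 they were Pkd1 (Pearson r = 0.995), Setd5 (0.995) and Ntrk3 (0.991). Ntrk3, the receptor for neurotrophin-3, was at 50.3, 54.5, 36.6 and 29.6 FPKM in OGD replicates 1 to 4 and at 29.1, 38.0, 35.2 and 30.9 FPKM in Control replicates 1 to 4, so it was high in the same OGD libraries as Gria2. For Gria4 they were Hspa4l (r = 0.986), Arsk (0.986) and Heca (0.984). Each of them rose, which follows from the search, since Gria4 itself was higher in every OGD library.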

How the data were processed

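Total RNA from 4 OGD and 4 Control samples was sequenced on an Illumina MiSeq from strand-specific libraries, per the labels' protocols and the series design. Per the file headers, the authors deposited 1 table of FPKM values. The submitters' processing notes name Trimmomatic, FastQC and build rn6 (Rnor_6.0). Not given in the sources used here were the aligner, the program behind the FPKM values, the annotation release and whether strand was used. FPKM is scaled to each library's total and holds no counts, so depth is known only relative to Control replicate 1 and no counting interval was made.

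The test took in 11149 of 32662 genes, those at 1 FPKM or more in 4 or more samples. The test was limma 3.58.1 under R 4.3.3, on log2(FPKM + 1) with a trended empirical Bayes step and group as the only term, with Benjamini-Hochberg adjustment over all tested genes. For symbols on several rows the row with the highest mean was used, and 3 of 115 list entries had no row. Some further receptor genes are not reported here. Tables were made with pandas 2.3.3 and figures with matplotlib 3.10.9. Checked on simulated OGD and Control values (11149 genes, of which few were changed), the test recovered 28% of genes changed 1.25-fold, 58% changed 1.5-fold and 96% changed 2-fold. In the simulation 149 genes were called, 8 of them falsely, against 5519 in the data, so the recovered shares may not hold for the data. Only genes of higher level were changed, so the check did not cover genes as low as Gria1.

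The subunits, gene lists, tests and naming rule were chosen with earlier results of these data known. Named genes were the 9 subunits, the 2 smallest p and the highest level of each list of partner genes, the 2 highest of each marker list and the 3 closest patterns to the 2 highest subunits. Any other gene was named after its values were seen. The alternatives were a pseudocount of 0.1, no filter, a filter of 5 FPKM, quantile normalization, median-centring, rescaling outside mitochondrially encoded genes, the replicate number as a block, limma without trend, and each sample left out. The joint omission of OGD replicate 4 and Control replicate 1 was chosen after seeing the data.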

Additional observations from a re-analysis of the deposited data

Results flagged for a closer look

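In 92 groups of 4 libraries checked for the named genes, 2 had a library that stood apart, and chance would give about 4.6. Neto1 was at 38.2 FPKM in Control replicate 1, and the next Control library was at 48.5 FPKM. C1qa, a microglial complement gene, was at 81.9 FPKM in Control replicate 4, and the next was at 55.0 FPKM. None of the 9 subunit genes had such a library in either group.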

How the results depend on the processing

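Gria4 and Grik2 were called in all 17 alternatives. Between 2 and 4 subunits were called when single libraries were left out, and 4830 to 5494 genes in all, against 3 and 5519. Over the 8 tested subunits, 110 of 135 gene and alternative pairs kept their direction and side of the threshold, 12 lost a call (all of Gria1) and 6 gained one (Gria2, Grik3 and Grik5), and 7 changed sign without passing (all of Gria3, at 0.0266 with quantile normalization, 0.0347 after rescaling, 0.0556 with the joint omission and -0.0569 to 0.0572 without single libraries). Other genes that did not pass changed sign too. Without single libraries the log2 change ran from -0.117 to 0.0571 for Adar, -0.182 to 0.0143 for Adarb1, -0.0144 to 0.182 for Adarb2, -0.0255 to 0.126 for Rcor1 and -0.0331 to 0.0793 for Sp1. It was 0.0207 for Adar after rescaling, 0.0127 for Sdcbp and 0.00195 for Slc1a3 with quantile normalization, and -0.0286 for Sp1 with the joint omission. Of the values that passed, 0 changed direction. With OGD replicate 4 and Control replicate 1 both left out, 4 subunits were called (Gria4, Grik2, Grik3 and Grik5). The median log2 change of all genes was -0.04, and -0.07 to -0.00 under the other scalings. Samples with the same replicate number did not vary together (correlations of their deviations -0.222 to 0.163), so the numbers were not taken to pair the samples, and OGD replicate 1 correlated best with Control replicate 2. With the replicate number as a block 5509 genes and 2 subunits were called, the call of Gria1 being lost (-0.43, adjusted p = 0.0513) and those of Nrf1 and Sox9 gained. Low levels limit what can be said of Gria1 and Grik1, and the number of fragments behind them is unknown.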

Other observations

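Some genes of the lists were below the filter, and so without a test in the filtered table, but had groups that did not overlap. Among tested genes 44.7% had such groups, and the share among genes below the filter was not counted. A few of these genes are given as values and were chosen after their values were seen. Slc7a11, the cystine and glutamate exchanger, averaged 0.839 ± 0.179 FPKM in OGD and 0.0900 ± 0.0227 FPKM in Control (SD, n = 4 each). Cacng3, a further AMPA receptor regulatory protein, averaged 1.47 ± 0.433 FPKM in OGD and 0.757 ± 0.174 FPKM in Control. Grip2, a scaffold that binds AMPA subunits, averaged 0.210 ± 0.0596 FPKM in OGD and 0.620 ± 0.327 FPKM in Control.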
